A study of Mus musculus with 6 samples.

Results

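The 10 genes described here, *Spry1*, *Spry2*, *Spry4*, *Spred1*, *Spred2*, *Etv1*, *Etv4*, *Etv5*, *Dusp6* and *Dusp4*, are transcribed in response to fibroblast growth factor (FGF) signaling through the kinase ERK, and most of them restrain it. They were chosen by name, with earlier results of these data known. Each had 1 locus of its own in the authors' table of 24402 loci, and none of these 10 loci held a second symbol or overlapped another locus. The samples were whole lungs of mouse embryos on a C57BL/6 background at 12.5 *dpc*, with 3 libraries from wild-type embryos (control) and 3 from Yap-flox/flox; Shh-Cre/+ littermates (*Yap* mutant). In the mutants, Cre made from the *Shh* locus turns the floxed *Yap* allele into a null allele in the epithelium and not in the mesenchyme. These embryos also carry only 1 intact *Shh* allele, which the wild-type controls do not share, so effects of the 2 alleles cannot be told apart. Neither the labels nor the methods say how many embryos went into a library.

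The table gives 1 value per genotype, which the authors summarized over the 3 libraries in FPKM, a count of fragments scaled to the length of the transcript and to the number mapped. The spread between libraries and their depth are therefore unknown, no test across libraries could be made, and every difference given below is a difference between these 2 values. A log2 ratio is that of the *Yap* mutant over the control FPKM. It was computed where both values were above 0 and averaged 1 FPKM or more, which held for 12701 loci, all 10 genes included. A ratio of at least 1.5-fold in either direction was counted as a difference.

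In the lung bud, FGF10 from the distal mesenchyme binds FGFR2 on the epithelium and activates the RAS-ERK cascade. ERK signaling induces the PEA3 group of ETS transcription factors, encoded by *Etv1*, *Etv4* and *Etv5*, and *Etv4* and *Etv5* are widely used as a readout of FGF activity at the epithelial tips. The same signal induces its own inhibitors. Sprouty proteins and the related Spred proteins act on the path from the receptor to ERK, while the phosphatases DUSP6 and DUSP4 remove the activating phosphates from ERK.

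Of the 10 genes, 9 had a higher value in *Yap* mutant than in control lungs and 1, *Etv5*, had a lower one. Among all 12701 loci, 48.2% had a higher value in the mutants. *Etv5* was the 1 gene of the 10 lower by at least 1.5-fold, as were 3.42% of all loci. *Etv4* and *Dusp6* were the 2 higher by at least 1.5-fold, as were 4.54% of all loci, and the remaining 7 lay within this range. The median log2 ratio was 0.36 for the 10 genes and -0.01 for all loci. Because *Etv5* had the highest level of the 10 in control lungs, the summed level of all 10 was 224.1 FPKM in the controls and 213.0 FPKM in the mutants, while that of the other 9 was 137.2 and 176.7 FPKM.

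**Figure D1:**
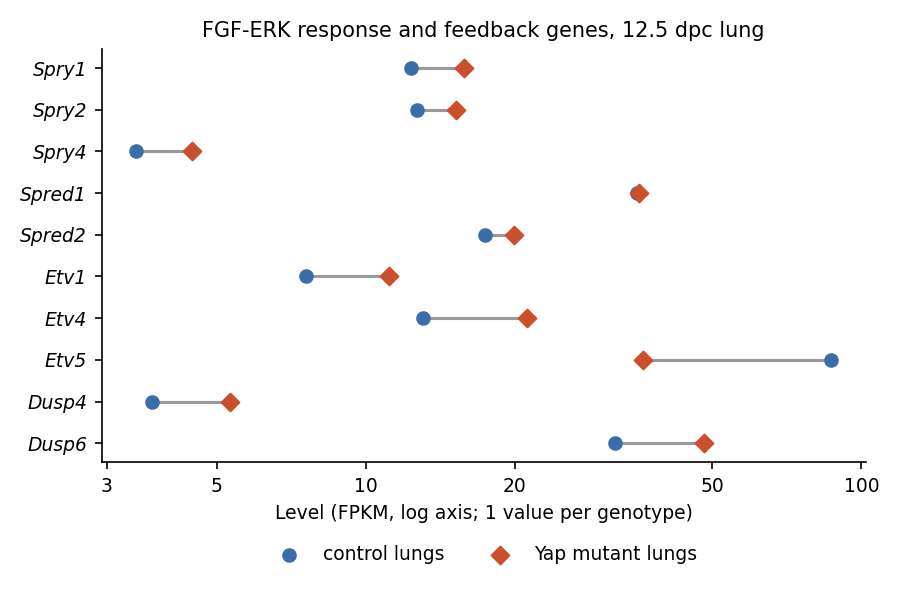
Level of each of the 10 genes in control (circles) and *Yap* mutant (diamonds) lungs at 12.5 *dpc*, in FPKM on a log axis, with 1 value per genotype and no error bar since values per library were not used. The diamond lies to the right of the circle for 9 genes, with the smallest step for *Spred1*, and for *Etv5* it lies to the left, at 36.3 against 86.9 FPKM.

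The difference was opposite within the PEA3 group. *Etv5* lies on chromosome 16 from 22381313 to 22439570 (mm10, as for all loci here, minus strand) and had 86.9 FPKM in the controls and 36.3 FPKM in the mutants. This was 2.39-fold lower, a log2 ratio of -1.26, and 97 of the 12701 loci (0.764%), *Etv5* included, had a ratio as low or lower. *Etv4*, on chromosome 11 from 101769742 to 101785337 (minus strand), had 13.0 FPKM in the controls and 21.1 FPKM in the mutants. Its log2 ratio of 0.70 was the highest of the 10 genes, and 446 loci (3.51%) had one as high or higher. *Etv1*, on chromosome 12 from 38780167 to 38871217 (plus strand), had 7.59 and 11.2 FPKM, a log2 ratio of 0.56 that was just short of 1.5-fold.

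FPKM is a level per length of transcript, so the levels of these factors can be set beside each other. In control lungs, *Etv5* was at 6.66 times the level of *Etv4* and at 11.4 times that of *Etv1*. In *Yap* mutant lungs it was at 1.72 times the level of *Etv4* and at 3.25 times that of *Etv1*. *Etv5* accordingly made up 80.8% of the summed PEA3 level in control and 52.9% in *Yap* mutant lungs, whereas the part of *Etv4* was 12.1% and 30.8%. The sum over the 3 factors was 107.5 FPKM in the controls and 68.6 FPKM in the mutants. The higher values of *Etv4* and *Etv1* together came to less than the lower value of *Etv5*. By contrast, the ratio of *Etv4* to *Etv1* was 1.72 in control and 1.89 in *Yap* mutant lungs.

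**Figure D2:**
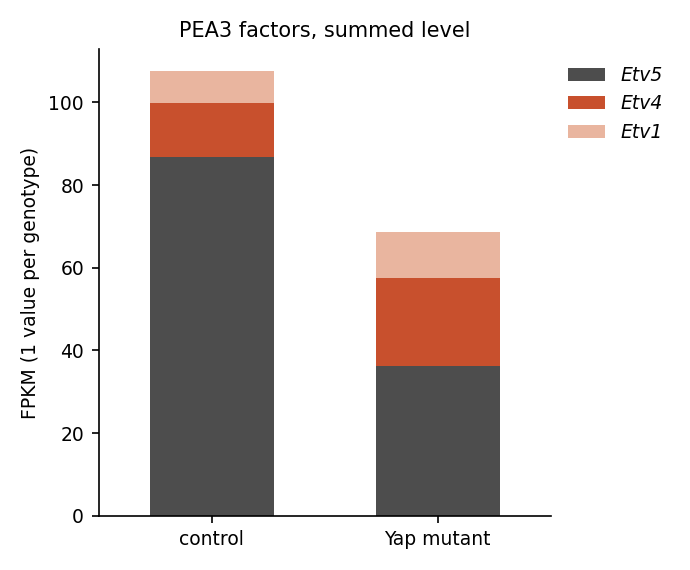
Summed level of the PEA3 factors *Etv5*, *Etv4* and *Etv1* in control and *Yap* mutant lungs, in FPKM, with 1 value per genotype. The bar is 107.5 FPKM high in control and 68.6 FPKM high in *Yap* mutant lungs, and *Etv5* makes up 80.8% and 52.9% of it.

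The RefSeq table used here holds 2 start sites for *Etv5*. The outer one, at 22439570, is the end of the locus measured, and its window held none of the motifs searched, but the bases before it overlap annotated exons of *Etv5* and are not printed. The stretch of 250 bases before the inner one is shown in its place, for the member with the largest difference, and that before the start of *Dusp6* because *Dusp6* had the highest ratio among members with a sequence in the table. The *Etv5* stretch is chr16:22438369-22438618 (minus strand) and the *Dusp6* stretch is chr10:99262981-99263230 (plus strand), both of GRCm38.p6 and written 5′ to 3′ with the last base next to the start. Capitals mark a match to the ETS motif GGAAGT, of which the *Dusp6* stretch holds none. A second match in the *Etv5* window, 3 to 8 bases into the transcript, lies outside the stretch shown. For *Etv1* and *Spry1*, 36 bases around a match to the TEAD motif GGAATG are given (chr12:38779989-38780024 and chr3:37639724-37639759, plus strand), with the match in capitals, since TEAD proteins are the factors through which YAP acts on DNA.
Etv5: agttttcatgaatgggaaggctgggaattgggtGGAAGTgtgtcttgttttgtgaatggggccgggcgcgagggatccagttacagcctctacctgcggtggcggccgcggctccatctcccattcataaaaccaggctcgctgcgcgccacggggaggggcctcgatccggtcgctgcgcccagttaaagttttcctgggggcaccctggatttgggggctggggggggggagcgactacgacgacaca
Dusp6: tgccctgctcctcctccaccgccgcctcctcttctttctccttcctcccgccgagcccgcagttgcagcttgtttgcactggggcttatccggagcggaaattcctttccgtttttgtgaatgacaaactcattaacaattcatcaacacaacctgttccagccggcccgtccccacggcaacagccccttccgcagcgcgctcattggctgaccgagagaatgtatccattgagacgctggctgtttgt
Etv1: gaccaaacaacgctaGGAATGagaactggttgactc
Spry1: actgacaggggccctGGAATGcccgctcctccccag

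Windows of 300 bases, from 250 before to 50 after a start, were in the RefSeq table for 7 of the 10 genes, 9 windows in all, and *Dusp4*, *Etv4* and *Spry4* were not searched. GGAATG, read on both strands, was in 2 of the 9 windows (*Etv1*, 78 to 73 bases before the start, and *Spry1*, 208 to 203 bases before it), and 14.7% of all 32851 windows of the same length held it. GGAAGT was in 3 of the 9 windows (*Etv1*, *Spred2* and the inner one of *Etv5*), against 23.8% of all windows. The AP-1 motif TGANTCA was in 0 of the 9 windows and in 7.81% of all windows. The motifs for TEAD and ETS share the letters GGAA but no match of one is a match of the other. A match in so short a window describes the sequence and does not show binding.

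The sprouty genes, which encode inhibitors of receptor tyrosine kinase signaling, were all 3 somewhat higher in *Yap* mutant lungs. *Spry1*, on chromosome 3 from 37639781 to 37644688 (plus strand), had 12.3 FPKM in the controls and 15.8 FPKM in the mutants, a log2 ratio of 0.35. *Spry2*, on chromosome 14 from 105891947 to 105896819 (minus strand) and known for its expression at the epithelial tips, had 12.7 and 15.2 FPKM, a log2 ratio of 0.26. *Spry4*, on chromosome 18 from 38586265 to 38601268 (minus strand), was the lowest of the 10 genes in both genotypes, with 3.44 FPKM in the controls and 4.46 FPKM in the mutants, a log2 ratio of 0.37. None of these 3 reached 1.5-fold. Between 8.31% (*Spry4*) and 12.4% (*Spry2*) of all loci used had a ratio as high or higher. On the opposite strand, GENCODE has the gene model Gm42922 at *Spry1* and short RNAs at *Spry4*, and whether the counting used strand is not given in the sources used here. The proportions within the group were nearly the same in both genotypes, since *Spry1* was at 0.974 times the level of *Spry2* in control and at 1.04 times in *Yap* mutant lungs.

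The Spred genes showed the smallest differences. *Spred1*, on chromosome 2 from 117120776 to 117182345 (plus strand), encodes an inhibitor that brings the RAS inactivator neurofibromin to the membrane. It had 35.3 FPKM in the controls and 35.6 FPKM in the mutants, a log2 ratio of 0.02, and 44.4% of all loci used had one as high or higher. *Spred2*, on chromosome 11 from 19924089 to 20024023 (plus strand), had 17.4 and 19.9 FPKM, a log2 ratio of 0.20. The summed level of the pair was 52.7 FPKM in the controls and 55.6 FPKM in the mutants.

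Of the ERK phosphatase genes, *Dusp6* passed 1.5-fold and *Dusp4* did not, and both had a higher value in *Yap* mutant lungs. *Dusp6*, on chromosome 10 from 99263231 to 99267489 (plus strand), encodes a cytoplasmic phosphatase of ERK and is a classic early target of FGF signaling. It had 31.8 FPKM in the controls and 48.1 FPKM in the mutants, 1.51-fold higher, a log2 ratio of 0.60. *Dusp6* thereby had the highest level of the 10 genes in *Yap* mutant lungs, where *Etv5* was second, while in control lungs *Etv5* was first and *Dusp6* came after *Spred1*. *Dusp4*, on chromosome 8 from 34806593 to 34821929 (plus strand), encodes a nuclear phosphatase and was low, with 3.70 FPKM in the controls and 5.33 FPKM in the mutants, a log2 ratio of 0.53. *Dusp6* was at 8.58 times the level of *Dusp4* in control and at 9.03 times in *Yap* mutant lungs. *Etv5*, in contrast, was at 2.73 times the level of *Dusp6* in control and at 0.755 times in *Yap* mutant lungs.

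**Figure D3:**
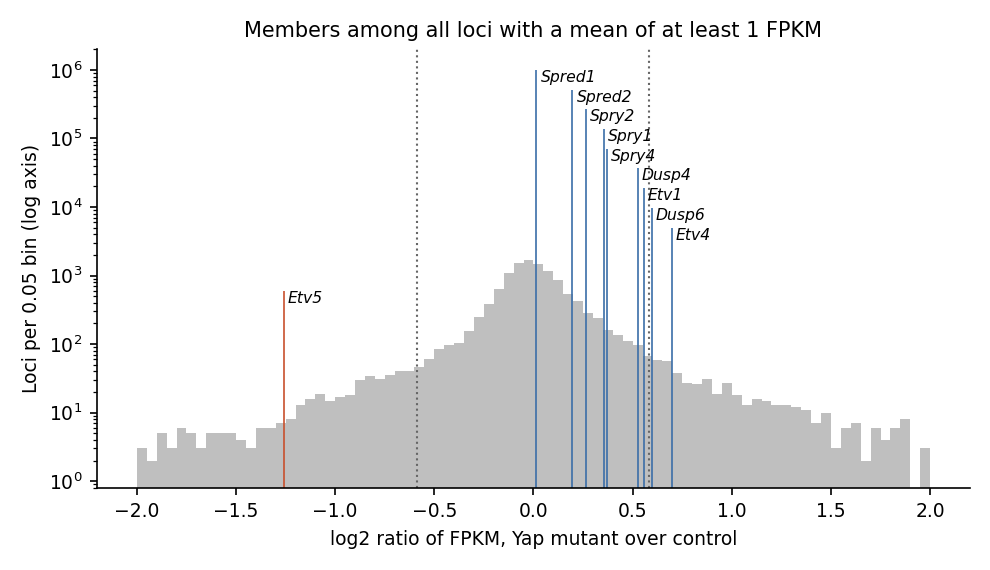
Histogram of the log2 ratio of *Yap* mutant over control FPKM for all loci averaging 1 FPKM or more, in bins of 0.05 on a log count axis, with the 10 genes as vertical lines whose heights only separate the names and dotted lines at 1.5-fold. A further 133 loci lie beyond 2 in either direction and are not drawn. *Etv5*, at -1.26, stands in the left tail, and the other 9 genes lie between 0.02 and 0.70.

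Other genes of the same pathway were taken from lists. Of 12 feedback genes outside the 10, 11 could be used, and of these 3 were higher and 0 were lower by at least 1.5-fold, with a median log2 ratio of 0.37. The 3 were *Dusp5*, a nuclear ERK phosphatase gene (2.92 FPKM in the controls and 5.35 FPKM in the mutants, log2 ratio 0.87), *Spred3* (1.34 and 2.28 FPKM, 0.77), and *Flrt3*, which encodes a membrane protein that binds FGF receptors (5.02 and 7.63 FPKM, 0.60). The feedback genes with the highest levels, *Errfi1*, *Flrt2* and *Dusp7*, had log2 ratios of 0.49, -0.06 and 0.01. *Spry3* was listed at 0 in both genotypes.

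The list of 22 FGF ligand genes also holds intracellular homologous factors, and 7 of the 22 had a mean of at least 1 FPKM. *Fgf10*, the mesenchymal ligand of lung budding, had 10.4 FPKM in the controls and 26.6 FPKM in the mutants, a log2 ratio of 1.35. *Fgf12*, an intracellular FGF homologous factor, was also higher (0.962 and 2.58 FPKM), and *Fgf18* was lower (3.58 and 2.21 FPKM, log2 ratio -0.70). *Fgf11*, a homologous factor like *Fgf12*, and *Fgf9* came next in level after *Fgf10* and had log2 ratios of 0.35 and 0.20. The median over the 7 genes, homologous factors included, was 0.35, with 2 higher and 1 lower by at least 1.5-fold, so it does not describe the ligands alone.

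Among 13 receptor and adaptor genes used, 1 was lower and 0 were higher by at least 1.5-fold, and the median log2 ratio was -0.03. The 1 was *Fgfr3*, with 9.77 FPKM in the controls and 3.57 FPKM in the mutants, a log2 ratio of -1.45. *Fgfr2*, named after its values were seen because its epithelial form binds FGF10, had 31.8 and 24.1 FPKM, a log2 ratio of -0.40. The phosphatase gene *Ptpn11* and the adaptor gene *Grb2* had log2 ratios of -0.09 and -0.02. The adaptor gene *Shc1* shares its locus with a second symbol, and that locus had a ratio of 0.01. In the RAS-ERK cascade, 0 of 15 genes differed by 1.5-fold, and the median was -0.00. *Mapk3*, which encodes an ERK, had a ratio of -0.01.

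Of 16 immediate early and other ERK-responsive genes used, 2 were lower and 0 were higher by at least 1.5-fold, and 8 lay on each side of 0, with a median of 0.01. The 2 were *Jun* (36.4 FPKM in the controls and 21.2 FPKM in the mutants, log2 ratio -0.78) and the cyclin D1 gene *Ccnd1* (98.9 and 61.3 FPKM, -0.69). *Mcl1* and *Phlda1*, the next in level, had ratios of -0.22 and 0.07. Among 13 ETS factor genes outside the PEA3 group, 1 was lower by at least 1.5-fold, the epithelial factor gene *Elf3* (2.29 FPKM in the controls, log2 ratio -0.93), and 0 were higher. The median was -0.04, and *Ets2*, *Erf* and *Ets1*, which had the highest levels, had ratios between -0.05 and -0.00.

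The RNA came from whole lungs, in which fewer cells of a type and less RNA per cell cannot be told apart, and levels of several cell types differed between the genotypes. Markers that define the lung were present in both, with *Nkx2-1* at 61.9 FPKM in the controls and 35.9 FPKM in the mutants and *Tbx4* at 54.3 and 59.2 FPKM, both named after their values were seen. Of 21 epithelial genes, 12 were lower and 0 higher by at least 1.5-fold, with a median log2 ratio of -0.60 and a summed level of 611.8 FPKM in the controls and 443.1 FPKM in the mutants. The 3 with the highest levels, *Cldn6*, *Epcam* and *Spint2*, had ratios of -0.60, -0.43 and -0.08. The ratio of *Etv5*, at -1.26, was below those of all 21, whose lowest was -1.19. The ratios of the other 9 genes were above the epithelial median by 0.61 (*Spred1*) to 1.30 (*Etv4*). Of all loci used, 52.2% were likewise above that median by at least 1.5-fold, so this position is not particular to the 9 genes. Of 7 genes of the distal tip epithelium, 4 had a higher and 3 a lower value in the mutants, with a median log2 ratio of 0.23. By at least 1.5-fold, 2 were higher and 0 lower. *Id2* had 117.7 FPKM in the controls and 211.0 FPKM in the mutants, and the surfactant protein C gene *Sftpc* had 28.4 and 55.8 FPKM. *Foxp2* and *Bmp4*, named after their values were seen, had ratios of -0.55 and 0.58, both short of 1.5-fold. *Wnt7b* of the same list had a ratio of 0.23, and *Sox9*, named after its values were seen, one of -0.22.

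Among the other cell types, 15 mesenchymal genes at 16 loci had a median log2 ratio of 0.05. By at least 1.5-fold, 4 of the loci were lower and 1 was higher. Ratios lay between -0.02 and 0.06 for *Col3a1*, *Vim* and *Col1a2*. Of the 4 lower loci, *Foxf1* had 83.5 FPKM in the controls and 41.6 FPKM in the mutants, and *Wnt2* 46.5 and 27.3 FPKM. The others were *Twist2* (20.1 and 11.3 FPKM) and the *Tcf21* locus with the lower level (3.70 and 1.96 FPKM). The *Tcf21* locus with the higher level had 57.4 and 39.2 FPKM, short of 1.5-fold. The 1 higher locus was *Prrx1* (12.9 and 28.2 FPKM). The genes past 1.5-fold were named after their values were seen. Of 6 smooth muscle genes, 4 were lower and 1 was higher by at least 1.5-fold, with a sum of 282.5 FPKM in the controls and 145.2 FPKM in the mutants, and *Acta2*, *Actg2* and *Tagln* had ratios of -1.06, -2.38 and -1.06. All 11 cardiac muscle loci used were higher, with a median of 3.27 and a sum of 122.5 FPKM in the controls and 895.5 FPKM in the mutants over the 12 listed, of which *Myl7*, *Myl4* and *Actc1* were the highest. Of 8 neural genes, 4 were lower and 0 higher by at least 1.5-fold (*Stmn2* and *Tubb3* were among the highest in level), with a median of -0.60. Mesothelial (*Upk3b*, *Wt1*, *Lrrn4*), endothelial (*Egfl7*, *Cldn5*, *Cdh5*), erythroid (*Hbb-y*, *Hba-a1*, *Hba-x*) and macrophage genes (*C1qb*, *C1qc*, *Mrc1*) had medians of 0.31, 0.16, 0.11 and 0.19. *Xist* was at 97.0 FPKM in the controls and 50.4 FPKM in the mutants, and of the Y-linked genes, 0 was listed in the controls for *Kdm5d* and *Uty*, with 0.0163 and 0.0143 FPKM for *Ddx3y* and *Eif2s3y*. The 4 together had 36.4 FPKM in *Yap* mutant lungs, so the sexes of the embryos were not balanced between the genotypes. *Yap1* itself, whose allele stays intact in the mesenchyme, had 76.1 FPKM in the controls and 65.6 FPKM in the mutants. The part of these differences in the values of the 10 genes was not tested.

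The loci next to the 10 genes were compared as genomic context. Of the 20 loci that lay nearest on either side with a mean of at least 1 FPKM, 19 were within 1.5-fold, and the median log2 ratio was 0.03. The neighbors of *Etv5* were *Tra2b*, 115337 bases away with a log2 ratio of -0.22, and *Tbccd1*, 373645 bases away with one of -0.01. *Dhx8*, which lies 747 bases from *Etv4*, had a ratio of 0.01. The 1 nearest neighbor past 1.5-fold was *Meox1*, a homeobox gene 92173 bases on the other side of *Etv4*, with 5.67 FPKM in the controls and 13.7 FPKM in the mutants. Of the 20 loci second nearest on either side, 16 were within 1.5-fold, 2 were higher (*Arl4d*, 101910 bases from *Etv4* with a log2 ratio of 1.21, and *Slitrk5* beyond *Spry2*, 1.11) and 2 were lower (*Thbs1* beyond *Spred1*, -0.67, and *Ppp1r3b* beyond *Dusp4*, -1.34). *Fgf1* lies 237405 bases from *Spry4* and had 0.894 and 1.32 FPKM, a log2 ratio of 0.56.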

How the data were processed

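RNA from whole lungs at 12.5 *dpc* was sequenced as stranded paired-end libraries, 3 per genotype. Per the submitters' processing notes, the tools were TopHat and Cuffdiff and the build was mm10, with no versions given. The paper's methods name the Maverix platform. The authors deposited 1 FPKM value per genotype for each locus, and the unit was inferred from the Cuffdiff layout of the table. Its columns of fold changes and p-values, and a second table of loci chosen by them, hold the authors' own comparison and were not used. Groups were named in the table as control and Yap-mt. No values per library entered, hence no depth, error or test can be given, and no difference, small or large, can be set against the spread between libraries.

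Log2 ratios were computed without a pseudocount for loci with both values above 0 and a mean of at least 1 FPKM, and counted past 1.5-fold. A list is described by its counts and its median. The function was tested on simulated data. Locus starts were raised by 1 to count from 1, and gene models of GENCODE M21 (GRCm38) overlapped all 10 loci. Promoter windows came from RefSeq, GRCm38.p6. The genes and lists were chosen with earlier results of these data known. Named were the 10 genes, in each pathway list the genes past 1.5-fold and the 3 with the highest mean, in each cell type list the 3 with the highest mean, and *Yap1*, *Xist* and the Y-linked genes, except a few that are not reported here; the search for neighboring loci was added after the data were seen. Of 16 cascade genes, *Hras* was not analysed here, nor were *Hbb-bs* and *Hbb-bt* of 13 erythroid genes. Alternatives changed the filter, the pseudocount, the scaling, the fold and the use of loci with several symbols. Python 3.11.15, numpy 2.4.6, pandas 2.3.3 and matplotlib 3.10.9 were used.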

Additional observations from a re-analysis of the deposited data

How the results depend on the processing

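*Etv5* was the 1 gene lower by the fold used under all 10 alternatives tried. The share of all loci lower by that fold ranged from 0.882% (ratios taken from the epithelial median) to 8.94% (1.2-fold). Under each of the alternatives 9 genes had a higher value in *Yap* mutant lungs, except that with a mean of at least 5 FPKM 8 genes could be used and 7 were higher. That the other genes stayed higher is no check of their direction. Filters, pseudocounts and folds leave the sign of a ratio as it is, and each rescaling used here moved every ratio up. None moved the ratios down, and *Spred1* was only 1.01-fold higher. The count of genes higher by at least 1.5-fold, 2 in the report, was 1 with a pseudocount of 1 FPKM (*Etv4*), beside 3.02% of all loci. At 1.2-fold it was 6, beside 12.4% of all loci, and at 2-fold it was 0, beside 2.17%. It was 3 with FPKM scaled to the same sum in both genotypes, where *Etv1* joined *Etv4* and *Dusp6*, beside 5.02% of all loci. With ratios taken from the epithelial median, which shifts every ratio up by the same amount, it was 9, the median log2 ratio of the 10 genes was 0.96, and 52.2% of all loci were then higher by 1.5-fold. The median was within 0.1 of the reported 0.36 under the other scalings, filters and pseudocounts. No paired analysis was possible because the table holds no values per library, and for the same reason no library could be left out. With 1 value per genotype and depth unknown, the difference of none of the 10 genes can be set against the error of the values. Those of *Spred1*, *Spred2* and *Spry2* were the smallest.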
